A study of Mus musculus with 48 samples.

Results

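Chromatin accessibility was compared between CD8+ T cells that carried a guide RNA against Zfp219 and CD8+ T cells that carried a guide RNA against Dusp5, all recovered from tumors of young hosts. The members are the 16 libraries of the deposited ATAC-seq table, of 48 in all, whose labels name a young host and one of these guides in a shared sorted state. They comprise 2 Tprog, 3 Ttran and 3 Tterm libraries for each guide. No control library entered the comparison.

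The cells were OT-1 CD8+ T cells, whose T cell receptor recognises an ovalbumin peptide, and they expressed Cas9 and the congenic marker CD45.1. A lentivirus with an ametrine reporter delivered a single guide RNA, and the labels name the resulting genotypes Zfp219KO and Dusp5KO. The cells were transferred before inoculation with B16-OVA, a melanoma line that expresses ovalbumin, and were sorted from the tumors on day 15 of growth. The 3 states were sorted by surface markers: Tprog (progenitor) cells were Slamf6+ Tim-3-, Ttran (transitory) cells were Slamf6+ Tim-3+ and Tterm (terminal) cells were Slamf6- Tim-3+. Cells from independent mice were pooled into the replicates, with 5000 to 50000 cells for each combination, so p-values measure the spread between such pools. The edit itself was not measured here, and both arms share Cas9, the OT-1 receptor, the tumor and the viral vector. Host age was read from the letters Y and A in the labels as young and aged.

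In ATAC-seq the transposase Tn5 cuts accessible DNA, and a peak with more cuts is read as more open chromatin. Zfp219 is a C2H2 zinc finger protein that acts as a transcriptional repressor. Dusp5 is a nuclear dual-specificity phosphatase that dephosphorylates and retains ERK, the last kinase of the Ras-Raf-MEK-ERK cascade. ERK activity downstream of the T cell receptor induces Fos, Egr and Ets-family factors, Dusp and Sprouty genes feed back on the cascade, and Fos and Jun proteins form AP-1, a main driver of effector gene accessibility in T cells. Tumor-infiltrating CD8+ T cells pass from Tcf7-expressing progenitor cells to terminally exhausted cells that express several inhibitory receptors.

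The table holds 53868 peaks with a median width of 899 bases, and its values are reads divided by a library's size factor, called normalised counts below. Reads in peaks ranged from 6589023 to 22994236 per library, with a median of 15929416.5. The 3 Zfp219 Ttran libraries were the shallowest group, with 6589023, 7606132 and 7952298 reads, against 7809388, 14960712 and 20077793 for Dusp5 Ttran. Replicates of a group correlated across peaks with r between 0.932 and 0.978. On the first principal component (33.2% of the variance) Tprog libraries lay apart from Ttran and Tterm libraries. On the second (9.13%) all 8 Zfp219 libraries had scores above 0 and all 8 Dusp5 libraries scores below 0, with replicate 1 of Ttran farthest out for both guides (66.1 and -101). The strongest peak near Slamf6, a sort marker, read 421 and 347 in Zfp219 Tprog, 253, 201 and 226 in Ttran and 133, 135 and 126 in Tterm. With the Dusp5 guide it read 533 and 500.3 in Tprog, 305, 332 and 347 in Ttran and 129, 179 and 159 in Tterm. The strongest peak of Havcr2, which encodes Tim-3, read 678 and 667 in Zfp219 Tprog and 694 and 659 in Dusp5 Tprog, and 1148 to 1349 in the Ttran and Tterm libraries of both guides, so it did not separate Ttran from Tterm. Peak values are an average over the sorted cells, so fewer cells with an open site and less signal per cell cannot be told apart.

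Averaged over the 3 states with equal weight, 3493 peaks differed between the guides (limma, Benjamini-Hochberg adjusted p under 0.05, referred to as called), 6.48% of those tested. Of these, 1331 (2.47% of all peaks) were higher and 2162 (4.01%) lower with the Zfp219 guide. Most differences were small: the median absolute log2 fold change of called peaks was 0.386, and 238 peaks (105 higher, 133 lower) reached a log2 fold change of 1 in size. The sign was the same in all 3 states for 3266 called peaks (93.5%), but calling on the mean of the same differences favours such agreement. Over all peaks the differences correlated with r of 0.127 between Tprog and Ttran, 0.158 between Tprog and Tterm and 0.199 between Ttran and Tterm. Of the 3493 peaks, 1777 were called in no single state. In 413 peaks (0.767%) the Zfp219 libraries all lay above the Dusp5 libraries within each state, and in 645 (1.2%) all lay below. Called peaks were fewer, 971 (315 higher, 656 lower), when each group was reduced to a single value, and 2186 without the Ttran libraries.

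The peak with the smallest adjusted p among those chosen for size was lower with the Zfp219 guide and lies 80968 bases from Il12a, which encodes the p35 subunit of interleukin 12 (chr3:68779518-68780696, mm10). Its normalised counts, with the Zfp219 libraries first here and below, were 52.5 and 71.7 against 207 and 228 in Tprog, 83.1, 134 and 96.5 against 238, 271 and 206 in Ttran, and 99.0, 88.6 and 111 against 236, 185 and 218 in Tterm. No overlap between the groups in any state was part of the rule that chose this peak. Its mean log2 fold change was -1.37 ± 0.12 (SE) with an adjusted p of 8.0e-11 by limma. Control-guide cells of young hosts read 125 and 99.2 in Tprog, 111, 156 and 131 in Ttran and 111, 128 and 119 in Tterm at this site. Those values lie below every Dusp5 value of the state, and they overlap the Zfp219 values in Ttran and lie above them in Tprog and Tterm. The Il12a peak was among the 12 peaks called in the same direction in each state on its own.

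A peak 25029 bases from Zfp64, a zinc finger gene, had the largest decrease of the peaks without overlap (-1.77 ± 0.21, adjusted p 1.2e-07 by limma). Its normalised counts were 22.8 and 30.5 against 109.8 and 49.3 in Tprog, 19.8, 36.0 and 31.1 against 82.1, 96.8 and 120.1 in Ttran, and 26.5, 28.9 and 14.8 against 96.1, 104 and 99.8 in Tterm. The lack of overlap in every state was again required by the rule that chose it. A peak near Kctd15 (-1.74), 2 peaks in Klf12, a Krüppel-like transcription factor gene (-1.70 and -1.38), a peak in Sox5, an SRY-box factor gene (-1.49), the Odaph promoter (-1.29), a peak in Coa8, a cytochrome c oxidase assembly gene (-1.27), and 2 intergenic peaks (chr2:75208461-75209543, -1.51, and chr13:44207064-44207895, -1.34) completed the 10 largest decreases with a mean count of at least 20.

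Among the stronger peaks, with a mean count of at least 200, the 5 largest decreases without overlap lay at Itga3, Tnfsf11, Ece1 and Gramd4. A pair of peaks near Itga3, the integrin alpha 3 gene, fell by 0.98 and 0.81 on the log2 scale. The stronger of them (chr11:95082607-95083276) read 235 and 202 against 387 and 419.7 in Tprog, 184, 336 and 349 against 596, 541 and 545 in Ttran, and 403, 389.8 and 381 against 592, 519 and 604 in Tterm. The Zfp219 libraries were lower without overlap in every state. A peak 21550 bases from Tnfsf11, which encodes the cytokine RANKL, fell by 0.88, a peak in Ece1, which encodes endothelin-converting enzyme, by 0.83, and a peak in Gramd4 by 0.81.

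In the other direction, the largest increase without overlap was in Zdhhc14, a palmitoyltransferase gene (1.84 ± 0.25, adjusted p 1.6e-06 by limma). This peak read 31.7 and 15.9 against 0.773 and 0 in Tprog, 49.4, 97.8 and 62.2 against 45.2, 42.2 and 32.0 in Ttran, and 73.2, 74.1 and 68.6 against 44.4, 57.9 and 38.1 in Tterm, so Dusp5 Tprog cells were near 0 and the difference was largest there. Peaks in Srpk1, an SR protein kinase gene (1.46), Rapgef2, a Rap1 exchange factor gene (1.45), D430041D05Rik (1.34), Prrc2c (1.27), Tspan3, a tetraspanin gene (1.18), and Nt5c2, a purine nucleotidase gene (1.14), were also higher. The set also holds 3 intergenic peaks, at chr14:15843315-15844185 (1.58), chr12:93230404-93230880 (1.41) and chr14:53634849-53635734 (1.33). Intergenic here means that no protein-coding gene was assigned within 100 kb, and genes of other types were not considered.

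The largest increase of a strong peak within a gene was in Map4k4, which encodes a Ste20-family kinase upstream of JNK (chr1:39986156-39987568). It read 288 and 421 against 173 and 208 in Tprog, 394, 417 and 421 against 289.8, 205 and 199.7 in Ttran, and 372, 367 and 405 against 267, 305 and 275 in Tterm. All Zfp219 values exceeded all Dusp5 values of the same state, but the peak was chosen for its large difference, which favours such a separation. The mean log2 fold change was 0.72 ± 0.09, and the adjusted p was 2.3e-07 by limma. Control-guide libraries read 292 and 367 in Tprog, 407, 411 and 404 in Ttran and 390.0, 436 and 419.6 in Tterm, and each exceeded every Dusp5 value of its state. A peak 5330 bases from Pla2g3, a secreted phospholipase gene, rose by 0.67, and one in Rasa3, a Ras GTPase-activating protein gene, by 0.62.

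**Figure D1:**
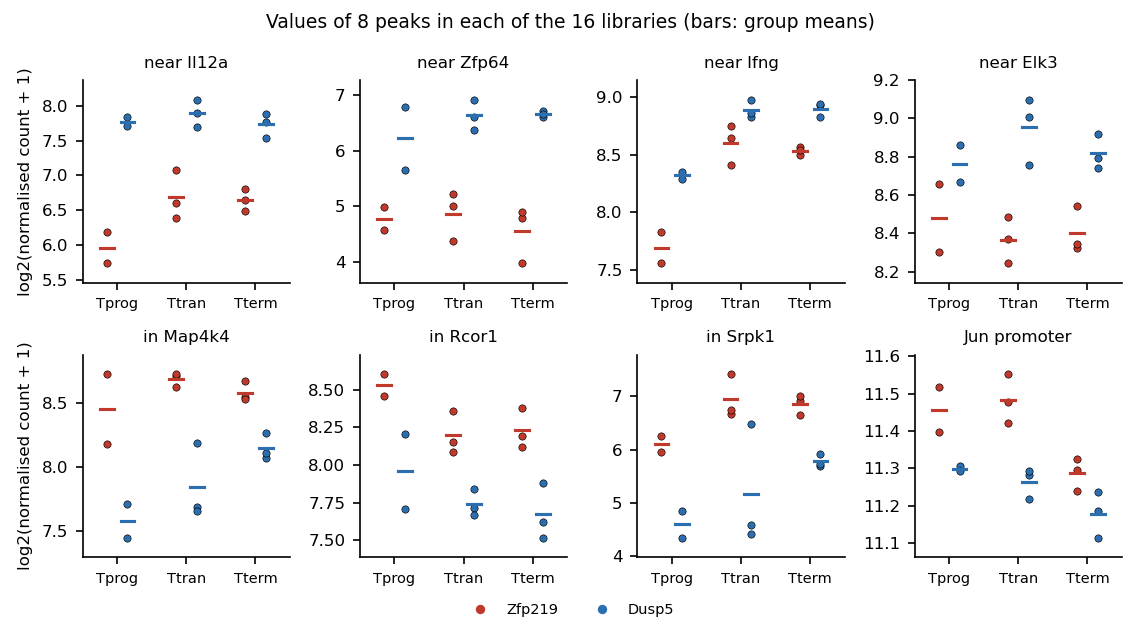
Each panel plots log2(normalised count + 1) of 1 peak for every library, by sorted state on the horizontal axis, with the 16 Zfp219-guide and Dusp5-guide libraries as points, group means as bars and a vertical scale of its own. The peak near Il12a is lower and the Map4k4 peak higher in all 8 Zfp219 libraries than in the Dusp5 libraries of the same state. Both peaks were chosen for their large differences, which favours such a separation.

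The called peaks lay in gene bodies, between genes and at promoters. Of 9253 peaks that overlap a promoter window (250 bases before to 50 bases after the start of a protein-coding gene), 349 were called (3.77%), against 7.03% of the remaining peaks in gene bodies, 6.97% of peaks outside gene bodies with a gene within 100 kb and 7.64% of the 2760 peaks with no gene within 100 kb. Called-lower peaks had a median normalised count of 283, called-higher peaks 168 and all peaks 95.9. In the strongest 25% of peaks, 1014 were lower and 379 higher, so 72.8% of the calls there were decreases, against 51.5% in the weakest 25%. Of all peaks in the strongest 25% 7.53% were called lower, so the share of a list's peaks that lie in the strongest 25% is given beside the gene lists below.

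Peak values do not check the edit, since a Cas9 cut typically changes a few bases of coding sequence. The 2 peaks of Zfp219 did not pass the test, with log2 fold changes of 0.05 and 0.10. The stronger one, 1560 bases from the gene, read 540.2 and 509 against 549 and 504 in Tprog, 672, 455 and 622 against 503, 509 and 478 in Ttran, and 527, 413 and 515 against 441, 487 and 439 in Tterm. The Dusp5 promoter peak (chr19:53528476-53530901) read 774 and 822 against 847 and 879 in Tprog, 1018, 954 and 933 against 906, 931 and 914 in Ttran, and 989.8, 1075 and 1044 against 1076, 945 and 952 in Tterm, with a log2 fold change of 0.01 ± 0.04 and overlapping groups. Of the 17 Dusp5 peaks 4 were called, all lower: a peak 67133 bases from the gene (-0.23), 1 at 48684 bases (-0.21), 1 at 20864 bases (-0.62) and 1 inside the gene (-0.23).

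Dual-specificity phosphatase, Sprouty and Spred genes were listed because Dusp5 is one of them. They are called ERK brakes here, although not every listed phosphatase acts mainly on ERK. Of the 116 peaks of dual-specificity phosphatase, Sprouty and Spred genes, 18 were lower (15.5%) and 1 was higher, with a median log2 fold change of -0.09 against 0.00 for all peaks. Without the 17 peaks of Dusp5 itself, 14 of 99 were lower (14.1%). The share of these 116 peaks in the strongest 25% was 34.5%. Across 29 settings of the analysis, between 3 and 20 of the 116 were lower, with the median below 0 in each.

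Dusp2 encodes a nuclear ERK phosphatase induced on T cell activation, and its promoter peak was among the strongest of the set. It read 3428 and 3366 against 3606 and 3797 in Tprog, 3498, 3552 and 3149.7 against 3849, 3996 and 3789 in Ttran, and 3386, 3261 and 3363 against 3454, 3467 and 3422 in Tterm. The shift was small (-0.12 ± 0.03, adjusted p 0.0029 by limma) but the groups did not overlap in any state. A second Dusp2 peak, 11193 bases away, fell by 0.21.

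For Dusp4, another nuclear phosphatase, 3 peaks were lower (-0.46, -0.21 and -0.25). For Spry2, which encodes a Sprouty adaptor that blocks Ras activation, 4 peaks were lower, between -0.25 and -0.45. The peak 464 bases from Spry2 (chr14:105897283-105899086) read 196 and 189.9 against 277 and 289.8 in Tprog, 235, 172 and 223 against 323, 264 and 275 in Ttran, and 252, 253 and 262 against 313, 314 and 306 in Tterm. The Zfp219 values were lower without overlap in each state. Single peaks of Dusp6 (-0.48), the cytoplasmic ERK phosphatase, Dusp16 (-0.23), Spred1 (-0.42) and Spred2 (-0.18) were lower too. Dusp1 had 1 peak lower (-0.38) and 1 higher (0.17).

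Among the kinases, exchange factors and GTPase-activating proteins of the cascade itself, 6 of 129 peaks were higher (4.65%) and 5 lower (3.88%), against 2.47% and 4.01% of all peaks, and 28.7% of the 129 were in the strongest 25%. In Braf, a Raf-family kinase gene, 2 peaks were higher (0.77 and 0.52). The promoter peak of Rasgrp1, which encodes a Ras exchange factor, was higher (0.17). Peaks of the Ras GTPase-activating gene Rasa2 (-0.43 and -0.23), the scaffold Ksr1 (-0.53) and the ERK-activated kinase gene Rps6ka1 (-0.19) were lower. Of 53 peaks of p38 and JNK genes (32.1% in the strongest 25%) 2 were lower (3.77%) and none higher, both in Mapkapk3, a kinase downstream of p38 (-0.39 and -0.19).

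**Figure D2:**
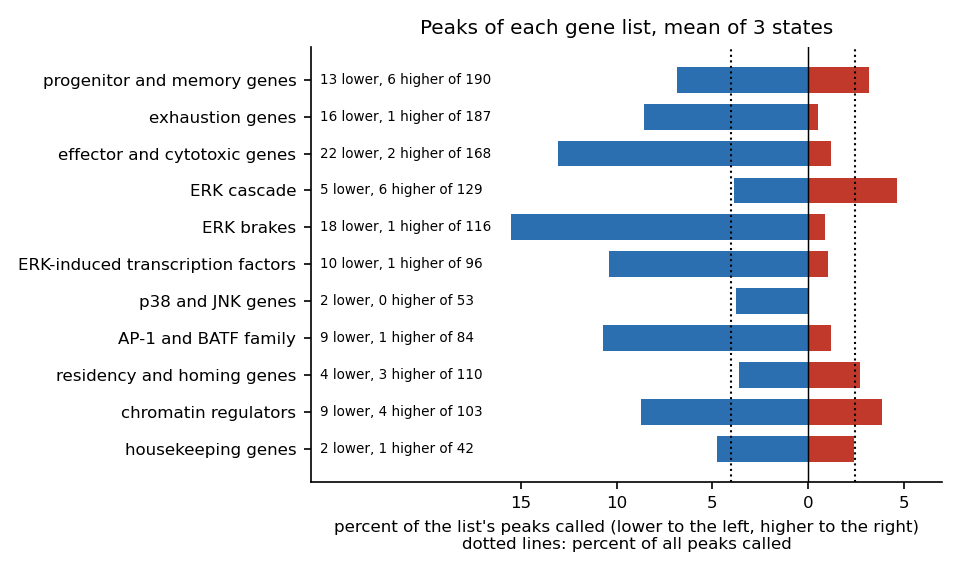
Bars give the percent of each gene list's peaks that were called lower (to the left) and higher (to the right) with the Zfp219 guide in the mean of 3 states. The dotted lines mark the shares over all peaks, 4.01% lower and 2.47% higher; the bar of the ERK brakes reaches 15.5% lower.

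The next list holds genes that ERK induces and also the Elk genes, which are listed as targets of ERK phosphorylation rather than of induction. Of 96 peaks of Egr, Fos, Ets-family and immediate-early genes 10 were lower (10.4%) and 1 higher, with a median log2 fold change of -0.09, and 51.0% of these peaks were in the strongest 25%. Of these 10, 5 were assigned to Elk3, which held 21 of the 96 peaks and encodes a ternary complex factor phosphorylated by ERK. The log2 fold changes of the 5 lay between -0.18 and -0.43. The Elk3 peak at chr10:93335753-93337512 read 403 and 315 against 465 and 405 in Tprog, 303, 357 and 331 against 432, 547 and 513 in Ttran, and 372, 319.6 and 324 against 427, 484 and 443 in Tterm. No Zfp219 value reached a Dusp5 value of the same state.

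Peaks of Fosb (-0.55 and -0.20), Fos (-0.57), Ier3 (-0.47) and Ier5 (-0.29) were also lower, and 1 Myc peak was higher (0.12). None of the peaks of Egr1, Egr2 or Egr3, the early growth response factors, was called. Among 84 peaks of AP-1, BATF and related genes, which share the Fos family with the preceding list, 9 were lower (10.7%) and 1 was higher, with 39.3% of them in the strongest 25%. Lower peaks included those of Batf (-0.42), Batf3 (-0.20), Atf3 (-0.52), Mafk (-0.29) and the Junb (-0.13) and Maff (-0.13) promoters. The higher peak was the promoter peak of Jun, which encodes an AP-1 subunit: it read 2695 and 2929 against 2531 and 2507 in Tprog, 2741, 3001 and 2849 against 2379, 2487 and 2508 in Ttran, and 2564, 2415 and 2512 against 2411, 2328 and 2215 in Tterm. The Zfp219 libraries were higher without overlap in each state (0.16 ± 0.03, adjusted p 3.8e-04 by limma).

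Promoter sequences were searched for the AP-1 letters TGANTCA on both strands, because the AP-1 genes were among those that moved. Of 11975 RefSeq promoter windows (GRCm38.p6, 300 bases each) that lie wholly within a peak, 576 held them (4.81%). They were in 33 of 256 windows within peaks called lower (12.9%) and in 10 of 221 within peaks called higher (4.52%); over all 32851 windows the share was 7.81%. The lower windows belong to 225 genes, of which 31 held the letters. For comparison, the CRE letters TGACGTCA were in 3.13% of the lower and 2.26% of the higher windows (3.51% of windows within a peak). The ETS letters CCGGAAGT were in 4.69% and 6.33% (8.90%), the EGR letters GCGTGGGCG in 1.17% and 0.452% (1.26%), and the RUNX letters TGTGGTT in 4.30% and 4.07% (479 of the 11975 windows within a peak), each searched on both strands. Median GC content was 61.3% in the lower, 59.0% in the higher and 62.3% in all windows within a peak. A match is a description of the letters and was not linked to binding here.

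The 140 bases before the start of 4 genes whose promoter peak was lower and holds the AP-1 letters are printed first, with those letters in capitals, followed by the Dusp2 promoter and 2 promoters whose peak was higher. They were chosen after their values were seen. All are from RefSeq on GRCm38.p6, 5′ to 3′ on the strand of the gene. Tnfrsf9 encodes the costimulatory receptor 4-1BB, Srxn1 sulfiredoxin, S100a11 an S100 calcium-binding protein, Olr1 the oxidised LDL receptor LOX-1, and Cd80 a ligand of CD28 and CTLA-4.
Tnfrsf9: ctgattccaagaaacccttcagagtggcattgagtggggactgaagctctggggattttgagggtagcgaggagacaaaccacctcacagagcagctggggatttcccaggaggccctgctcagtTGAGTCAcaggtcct
Srxn1: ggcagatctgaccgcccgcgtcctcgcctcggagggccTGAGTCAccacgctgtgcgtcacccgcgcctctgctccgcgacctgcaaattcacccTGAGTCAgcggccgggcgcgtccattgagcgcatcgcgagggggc
S100a11: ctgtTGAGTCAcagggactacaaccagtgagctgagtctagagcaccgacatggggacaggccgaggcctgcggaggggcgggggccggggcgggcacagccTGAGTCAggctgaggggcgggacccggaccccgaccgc
Olr1: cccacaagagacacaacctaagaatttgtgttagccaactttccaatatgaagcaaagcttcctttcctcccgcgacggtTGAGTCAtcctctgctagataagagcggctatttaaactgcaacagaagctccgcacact
Dusp2: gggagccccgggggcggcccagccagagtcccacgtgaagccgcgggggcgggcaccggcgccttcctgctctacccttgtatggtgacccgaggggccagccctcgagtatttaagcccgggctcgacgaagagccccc
Cd80: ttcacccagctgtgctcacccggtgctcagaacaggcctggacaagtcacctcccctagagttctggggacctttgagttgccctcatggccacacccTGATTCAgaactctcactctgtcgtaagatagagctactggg
Jun: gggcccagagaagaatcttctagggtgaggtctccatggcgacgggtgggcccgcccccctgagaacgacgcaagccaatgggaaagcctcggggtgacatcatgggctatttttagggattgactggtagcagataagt

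The peak over the Tnfrsf9 promoter (chr4:150927859-150927998, plus strand; letters 15 bases before the start) read 544 and 572 against 623 and 652 in Tprog, 619, 650.4 and 617 against 796, 793 and 715 in Ttran, and 649.7, 651 and 630.0 against 665, 664 and 709 in Tterm. The groups did not overlap, although the Tterm values were close (-0.19 ± 0.05, adjusted p 0.02 by limma). The Srxn1 stretch (chr2:152105384-152105523, plus) holds the letters at 102 and 45 bases before the start, and its peak fell by 0.20. The S100a11 stretch (chr3:93520356-93520495, plus) holds them at 136 and 38 bases, and its peak fell by 0.23 (adjusted p 0.041 by limma). The Olr1 stretch (chr6:129507166-129507305, minus) holds them at 60 bases, and its peak, weak with a mean count of 57.1, fell by 0.69 (adjusted p 0.03 by limma).

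The Dusp2 stretch (chr2:127336019-127336158, plus), from the promoter peak that fell by 0.12, holds none of the AP-1 letters. The Cd80 stretch (chr16:38458793-38458932, plus) does hold them, 42 bases before the start, and yet its peak was higher (0.43 ± 0.07, adjusted p 8.0e-05 by limma). That peak read 472 and 425 against 337 and 291 in Tprog, 643, 491 and 586 against 477, 463 and 369 in Ttran, and 435, 427 and 442 against 374, 323 and 306 in Tterm, with no overlap between the guides. The Jun stretch (chr4:95052223-95052362, minus), from the promoter that rose, holds none of the letters TGANTCA. Variants such as the tgacatca within it were not searched. The letters therefore occurred in some promoters of each direction.

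Other called promoter peaks are named here because the guides did not overlap in any state, which is the rule that chose them. Stat5a, a transcription factor of the interleukin 2 pathway, was lower (-0.26), as were Ccr8, a chemokine receptor gene (-0.26), Ifitm2, an interferon-induced membrane protein gene (-0.89), Nt5e, which encodes the ectonucleotidase CD73 (-0.37), and Lmna, the lamin A gene (-0.29). Higher promoter peaks included Il21, a cytokine gene (0.59), Vegfa (0.49), Cxcr4, a homing receptor gene (0.22), Themis, a T cell receptor signalling gene (0.19), Trat1, a T cell receptor adaptor gene (0.90), and Dip2c (0.91). Of the higher promoter peaks, 4 covered histone genes, namely H1f3 (0.28), H1f4 with H2bc6 (0.16), H2ac6 (0.18) and H2bc3 with H3c3 (0.15). The near-identical histone copies can share reads, so their values are uncertain.

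Effector and cytotoxic genes held 22 lower peaks of 168 (13.1%) and 2 higher ones, with a median log2 fold change of -0.07; 40.5% of their peaks were in the strongest 25%. Over the 29 settings 7 to 27 of them were lower. Ifng, which encodes interferon gamma, had 4 distal peaks lower, between -0.33 and -0.80. The peak 53587 bases from Ifng (chr10:118386052-118387459) read 187 and 226 against 326 and 311 in Tprog, 429, 399.9 and 339 against 454, 464 and 504 in Ttran, and 377, 361 and 372 against 486, 489 and 453 in Tterm. Its Zfp219 values were lower in every state without overlap (-0.43 ± 0.07, adjusted p 6.2e-05 by limma).

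Runx3 encodes a transcription factor of the CD8 lineage and its cytotoxic genes, and 8 of its 23 peaks were lower, between -0.15 and -0.52. The Runx3 peak at chr4:135076694-135077635 read 872 and 838 against 973 and 897 in Tprog, 931, 939 and 967 against 1106, 1116 and 1265 in Ttran, and 914, 896 and 969 against 1029, 1098 and 986 in Tterm. Those groups did not overlap, whereas the promoter peak of Runx3 did not pass the test (-0.09, adjusted p 0.092 by limma). Peaks of Prf1, the perforin gene (-0.78), Gzmb, a granzyme gene (-0.33), Fasl (-0.22), the chemokine genes Ccl4 (-0.33) and Ccl5 (-0.22), Il2 (-0.45 and -0.27) and Tbx21, which encodes T-bet (-0.18 and -0.19), were lower. Zeb2, a zinc finger repressor gene, had 1 peak lower (-0.41) and 1 higher (0.36), and 1 Gzmk peak was higher (0.21).

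Exhaustion and inhibitory receptor genes held 16 lower peaks of 187 (8.56%) and 1 higher, with 35.3% of their peaks in the strongest 25%. Both peaks called in Pdcd1, which encodes PD-1, were lower. The stronger (chr1:94042018-94043086) read 862 and 895 against 997 and 955 in Tprog, 922, 679.6 and 746 against 923, 966 and 934 in Ttran, and 798, 839 and 735 against 897, 877 and 917 in Tterm, with no overlap in any state (-0.20 ± 0.05). Single peaks of Lag3 (-0.23), Havcr2, which encodes Tim-3 (-0.19), Tigit (-0.32), Ctla4 (-0.19), Entpd1 (-0.42), Cd244a (-0.48), Tox (-0.35), Prdm1 (-0.23) and Irf4 (-1.68, a weak peak) were lower. Nfatc1, a calcium-responsive factor, had 3 lower peaks (-1.36, -0.50 and -0.19) and Nr4a3, a nuclear receptor induced by receptor signalling, 2 (-0.62 and -0.45). The higher peak was distal to Eomes (0.76).

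Progenitor and memory genes moved both ways, with 13 lower (6.84%) and 6 higher peaks (3.16%) of 190, of which 30.0% were in the strongest 25%. Xcl1, a chemokine gene, held 6 of the 13 lower peaks, between -0.25 and -0.72, and the Xcl1 peak at chr1:164965809-164966846 read 972 and 981 against 1142 and 1164 in Tprog, 785, 855 and 808 against 1080.4, 1092 and 1058 in Ttran, and 689, 688 and 716 against 791, 737 and 721 in Tterm. Those values did not overlap in any state. Lower peaks also belonged to Myb (-0.38 and -0.40), Ccr7 (-0.25 and -0.17), Slamf6 (-0.40) and Bach2 (-0.20 and -0.54), while another Bach2 peak was higher (0.20). Both called peaks of Satb1, a chromatin organiser, were higher (0.29 and, at the promoter, 0.27), as were those of Lef1 (0.20 and 0.30) and Bcl6 (0.17). None of the peaks of Tcf7, the defining factor of progenitor cells, was called, and its strongest peak differed by -0.04.

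**Figure D3:**
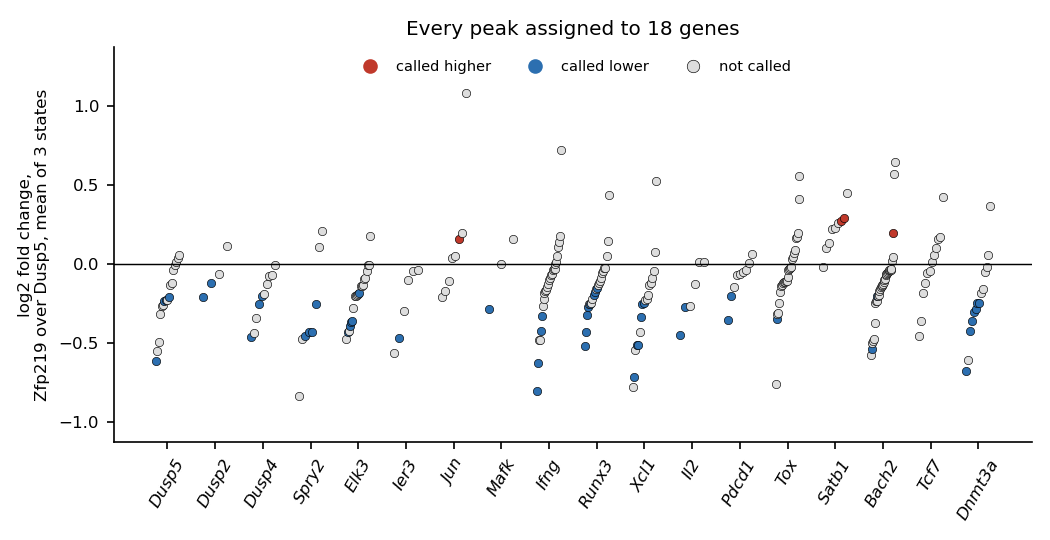
Each point is a peak assigned to 1 of 18 genes and gives its log2 fold change, Zfp219 over Dusp5, in the mean of 3 states, with called peaks marked. The called peaks of Runx3, Ifng, Xcl1 and Elk3 all lie below 0 and those of Satb1 above 0.

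Chromatin regulators, listed because Zfp219 is a repressor, held 9 lower (8.74%) and 4 higher peaks (3.88%) of 103, with 34.0% in the strongest 25%. Of the 9, 7 lay in Dnmt3a, a de novo DNA methyltransferase gene with 14 peaks. Their log2 fold changes ran from -0.25 to -0.68, and the one at chr12:3823227-3824295 read 435 and 540.4 against 605 and 639 in Tprog, 429, 491 and 489 against 508, 565 and 574 in Ttran, and 413, 422 and 391 against 557, 511 and 429.8 in Tterm. The guides did not overlap there. Tet3 (-0.16) and Smarca4 (-0.24) had the other 2, and the higher peaks lay in Rcor1, a corepressor gene (0.53), Mbd2 (0.35), Ezh2 (0.31) and Dnmt1 (0.83).

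Residency and homing genes had 3 higher (2.73%) and 4 lower peaks (3.64%) of 110, shares close to the 2.47% and 4.01% of all peaks, and 23.6% of the 110 were in the strongest 25%. All 3 higher peaks belonged to Itga4, the integrin alpha 4 gene (0.30, 0.15 and 0.26), and the lower ones to Cxcr3 (-0.34), Cxcr6 (-0.43), Itgb1 (-0.16) and Itga1 (-0.84). Housekeeping genes had 1 higher (2.38%) and 2 lower peaks (4.76%) of 42, with 47.6% in the strongest 25%.

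The summed signal of marker genes of other cell types differed between the guides within a state for some lists, and its part in the results was not tested. NK cell marker genes were higher with the Zfp219 guide without overlap in each state, at 6688 to 7007 against 6398 to 6646 in Tprog, 6162 to 6660.2 against 5554 to 5929 in Ttran and 6066 to 6283 against 5755 to 6037 in Tterm. Of their 29 peaks 2 were higher, near Klre1 and Eomes. Eomes, also listed above as an exhaustion gene, held 14 of the 29, with a median log2 fold change of 0.251. The median was 0.135 over 6 Klre1 peaks and 0.004 over 8 Klrb1c peaks, and the 1 Ncr1 peak had 0.002. What part of the summed difference came from each gene was not tested. Melanoma marker genes also separated in each state but in both directions: they read 1608 to 1682 against 1513 to 1596 in Tprog and 1284 to 1294 against 1267 to 1274 in Tterm, and 1226 to 1331 against 1402 to 1435 in Ttran. Of their 9 peaks none was called in the mean and 2 were lower in Ttran (22.2%, against 3.15% of all peaks). No peak is listed for Tyr, Dct or Tyrp1.

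CD8+ T cell marker genes were lower with the Zfp219 guide in Tprog (32662 to 33277 against 34589.6 to 35329) and Ttran (31950.4 to 32609 against 33006 to 34306) and overlapped in Tterm (30516 to 31029.8 against 29929 to 30639.8). Of their 79 peaks 7 were lower (8.86%), against 4.01% of all peaks. The strongest 25% of peaks, of which 7.53% were lower, held 48.1% of the 79. The lower peaks included those near Cd5 (-0.35), Cd8a (-0.25), Cd8b1 (-0.20) and Cd2 (-0.26) and 3 near Thy1. CD4 T cell marker genes were lower in Tprog (1817 to 1886 against 2013 to 2128) and Ttran (2101 to 2229 against 2319 to 2372), with overlap in Tterm. Of their peaks 1 of 14 was lower (7.14%), in Cd4 itself. Stromal and endothelial marker genes were lower in Tprog (3186 to 3254 against 3307 to 3618) and Tterm (3248 to 3448 against 3621 to 3663), with overlap in Ttran and 1 of 18 peaks higher (5.56%, against 2.47% of all peaks). Myeloid marker genes overlapped in each state, between 4505 and 4878 over all 16 libraries, with 2 of 32 peaks higher (6.25%, in Itgam and near Ly86). No peak was listed for Lyz2, Csf1r, Adgre1, C1qa or C1qb. In the strongest 25% lay 14.3% of the CD4 T cell, 16.7% of the stromal and endothelial and 15.6% of the myeloid peaks. B cell marker genes also overlapped in each state, between 649.9 and 1058, with no call in 10 peaks and none listed for Cd79a, Cd79b or Ms4a1.

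By state, 550 peaks were called in Tprog (1.02%), 2825 in Ttran (5.24%) and 88 in Tterm (0.163%). In Tprog 205 were higher (0.381%) and 345 lower (0.64%), in Ttran 1126 (2.09%) and 1699 (3.15%), and in Tterm 37 (0.0687%) and 51 (0.0947%). Whatever the test, the guides did not overlap at 19.8% of peaks with the Zfp219 values higher and 20.1% with them lower in Tprog, at 9.12% and 9.87% in Ttran, and at 9.58% and 9.78% in Tterm. The order of the 3 counts depended on the spread assumed for each state. With each state fitted on its own libraries the counts were 186, 822 and 1543, and with weights estimated for each library 290, 1199 and 1505, so Tterm then had the most calls. The median within-group SD on the log2 scale was 0.192 in Tterm, 0.238 in Tprog and 0.289 in Ttran, where the Zfp219 libraries were the shallowest. Thinning every library to the smallest total left 1776 calls in Ttran. Single libraries mattered. The balance of directions in Tprog turned over without a Dusp5 library, with 386 higher and 232 lower calls without its replicate 1 and 141 and 101 without its replicate 2. In Tterm it was even without Dusp5 replicate 1 (14 and 14) or 2 (19 and 19), and with library weights 768 were higher and 737 lower. Also without replicate 2 of Tprog of the Zfp219 or the Dusp5 guide Tprog had 228 or 242 calls, and without replicate 1 of Dusp5 Ttran, which stood apart on the second component, Ttran had 1377. Leaving out any 1 Tterm library gave 28 to 44 calls there.

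**Figure D4:**
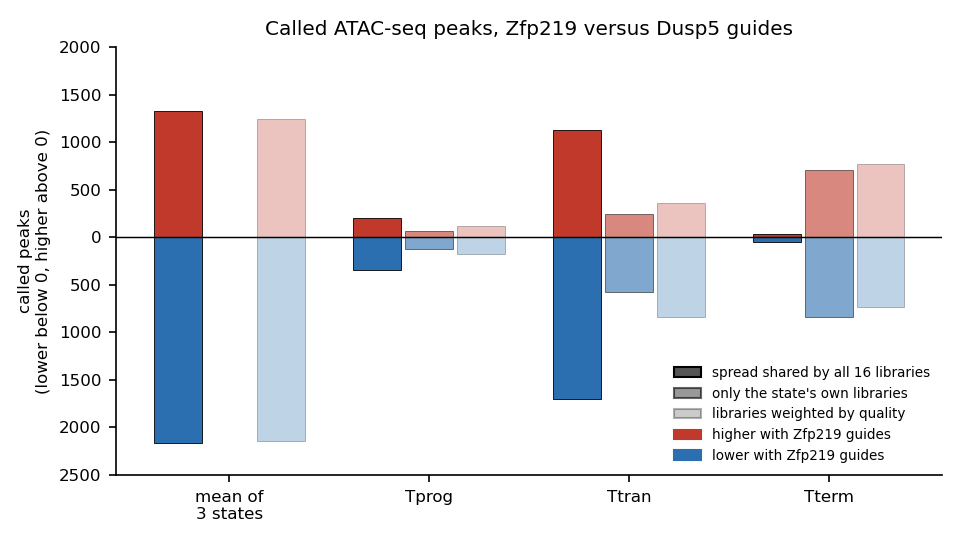
Bars give the number of peaks called higher (above 0) and lower (below 0) with the Zfp219 guide for the mean of 3 states and for each state, under the shared spread, each state's own spread and library weights; for the mean the first 2 are the same fit, drawn once. Under the shared spread Ttran has 2825 calls and Tterm 88, while under their own spread Tterm has 1543 and Ttran 822.

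Calls were compared between the states, which share no library but share the estimate of each peak's spread, so the calls are not independent. Of the 550 Tprog calls, 148 were called in the same direction in Ttran (26.9% of the Tprog and 5.24% of the Ttran calls) and 16 in Tterm (2.91% and 18.2%). Ttran and Tterm shared 48 (1.70% and 54.5%). The largest differences without overlap in Tprog were at Rtkn2 (2.90), Eps15l1 (2.46) and Gpr155 (2.45) among increases, and at Bhlhe40, a transcriptional repressor gene (-3.72), Rem1 (-3.33) and an intergenic peak (chr12:25335202-25335513, -2.60) among decreases. In Ttran they were Xxylt1 (2.36), Map4 (2.17) and Rnf169 (1.94), and Traf3ip2 (-3.23), a second Tnfsf11 peak (-3.01) and Tars (-2.76). In Tterm they were Fam193a (1.91), Itgam (1.37) and a peak in the T cell receptor delta locus (chr14:54074406-54075700, 1.20), and an intergenic peak (chr12:20815367-20816181, -4.27), Gm3476 (-2.48) and the Zfp64 peak (-2.11). Of the 6 peaks named for each state, 2 in Ttran and 1 in Tterm kept the call in each setting tried. Of the 550 Tprog calls, 168 were called again in the same direction when Tprog was fitted alone. Of the 51 lower calls in Tterm 8 were on chromosome Y, where 27 of 30 peaks had a value below 0 and the median was -0.48. The mean log2 value of the 30 was 6.38 to 6.46 in Zfp219 Tterm, 6.81 to 6.92 in Dusp5 Tterm and 6.43 to 6.65 in control Tterm libraries. In the mean of 3 states 7 of them were called lower (23.3%). In Ttran 6 of the 30 were called lower, against 3.15% of all peaks, 20 had a value below 0 and the median was -0.09. In Tprog none was called in either direction and the median was 0.04. The part of the chromosome Y peaks in the Tterm or Ttran difference of other genes was not tested.

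The difference between the guides itself differed between states at few peaks: 24 between Tterm and Tprog (0.0446%), 66 between Ttran and Tprog (0.123%) and 64 between Tterm and Ttran (0.119%). The difference was higher in Tterm than in Tprog at 3 (0.00557%) and lower at 21 (0.039%), higher in Ttran than in Tprog at 30 (0.0557%) and lower at 36 (0.0668%), and higher in Tterm than in Ttran at 40 (0.0743%) and lower at 24 (0.0446%). Without replicate 1 of Zfp219 Tprog the first split turned to 20 higher and 15 lower and the second to 96 and 39, and without replicate 2 the second was 30 and 16. A strong example was a peak in Thy1, which encodes a T cell surface glycoprotein (chr9:44046603-44047436). It read 356 and 282 against 569 and 601 in Tprog, 223, 148 and 205 against 593, 539 and 495 in Ttran, and 465, 432 and 421 against 217, 215 and 203 in Tterm. The Zfp219 values were below the Dusp5 values in Tprog and Ttran and above them in Tterm, without overlap, and the change from Ttran to Tterm was 2.56 ± 0.18 (adjusted p 2.4e-13 by limma). Its mean over states was -0.45, and 0.083 without the Ttran libraries.

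A second strong peak of this kind lay in Jarid2, a Polycomb cofactor gene (chr13:44869565-44870023). Its counts were 358 and 378 against 305 and 331 in Tprog, 835, 990.2 and 1122 against 464, 579 and 545 in Ttran, and 972, 943 and 1027 against 1170.1, 1122 and 1186 in Tterm. Here the Zfp219 values lay above the Dusp5 values in Tprog and Ttran and below them in Tterm, although the differences within Tprog and Tterm alone did not pass the test (adjusted p 0.43 and 0.48 by limma). The difference between Tterm and Ttran was -1.13 ± 0.13 (adjusted p 6.1e-07 by limma).

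Control-guide libraries of young hosts were used to place the guides along the path from Tprog to Tterm. In them, 4109 peaks were more open in Tprog and 2569 in Tterm (adjusted p under 0.05 by limma and a log2 fold change of at least 1; 7.63% and 4.77% of peaks). A state score was taken in each library as the mean log2 value of the first set minus that of the second. Tprog libraries scored 1.45 to 1.49 with the Zfp219 guide and 1.44 to 1.46 with the Dusp5 guide, so they overlapped. Ttran libraries scored -0.803 to -0.756 against -0.691 to -0.655, and Tterm libraries -1.25 to -1.22 against -1.45 to -1.44. The difference, Zfp219 minus Dusp5, was -0.111 in Ttran and 0.211 in Tterm, with no overlap in either.

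The order in Ttran and Tterm was the same after each change of scaling tried, while the Tprog difference of 0.0226 changed sign without the weakest 25% of peaks (-0.0125). Control libraries scored on average 1.83, -0.679 and -1.52, but they chose the peaks and are shown as a reference only. Over the 4109 progenitor-open peaks the median log2 fold change between the guides was 0.06 in Tprog, -0.09 in Ttran and 0.13 in Tterm. Calls among them were 4 higher (0.0973%) and none lower in Tprog, fewer than the 0.381% and 0.64% of all peaks. In Ttran 62 were higher (1.51%) and 150 lower (3.65%), close to the 2.09% and 3.15% of all peaks. In Tterm 8 were higher (0.195%) and 1 lower (0.0243%), against 0.0687% and 0.0947% of all peaks. Over the 2569 terminal-open peaks the medians were 0.02, 0.01 and -0.08. Of these, 54 were higher (2.1%) and 41 lower (1.60%) in Tprog, against 0.381% and 0.64% of all peaks, 61 (2.37%) and 40 (1.56%) in Ttran, and none and 2 (0.0779%) in Tterm.

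**Figure D5:**
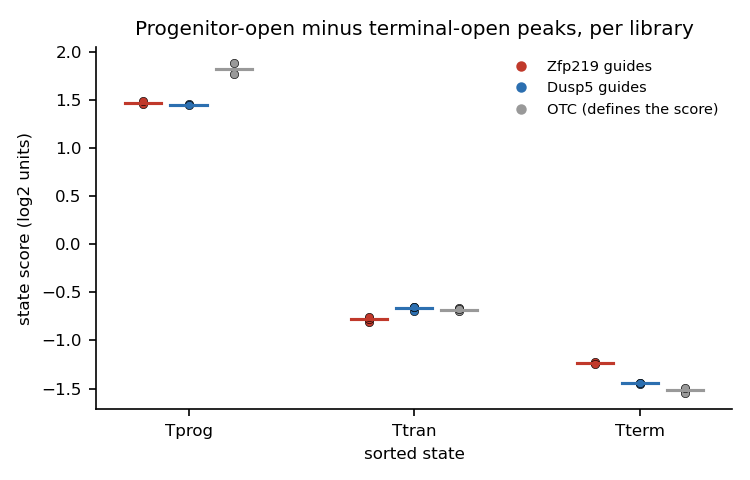
The state score of each library (log2 units, higher for progenitor-open chromatin) is plotted by sorted state for the Zfp219, Dusp5 and control guides. In Tterm the 3 Zfp219 libraries, between -1.25 and -1.22, lie above the 3 Dusp5 libraries, between -1.45 and -1.44; in Ttran they lie below.

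The same contrast was taken in 12 libraries from older (aged) hosts, which share no sample with the young ones. Its spread was estimated over the young and older libraries together. It called 6117 peaks (11.4%), 2985 higher (5.54%) and 3132 lower (5.81%). Of the 1331 peaks higher in young hosts, 936 (70.3%) had the same sign in older hosts and 287 were called in the same direction there (21.6% of the young and 9.61% of the older calls). Of the 2162 lower peaks, 1659 (76.7%) had the same sign and 574 were called the same way (26.5% and 18.3%). The opposite call was made at 59 and 48 peaks. The medians over these peaks were 0.44 and -0.35 in young hosts, where they were chosen, and 0.14 and -0.14 in older hosts.

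In older hosts effector and cytotoxic genes had 12 higher (7.14%) and 7 lower peaks (4.17%), against 5.54% and 5.81% of all peaks. Their median was 0.05 there, opposite in sign to the -0.07 of young hosts. ERK brakes had 4 higher (3.45%) and 9 lower (7.76%) with a median of -0.05. The list of ERK-induced and Elk genes had 1 higher (1.04%) and 10 lower (10.4%). AP-1 and BATF genes had 2 higher (2.38%) and 22 lower (26.2%) with a median of -0.12. Exhaustion genes had 17 higher (9.09%) and 19 lower (10.2%) and progenitor genes 14 (7.37%) and 23 (12.1%). The difference between ages was not tested for a list as a whole.

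The difference between the guides itself differed between host ages at 2002 peaks (3.72%), with the value for young hosts higher at 923 (1.71%) and lower at 1079 (2.0%). The Il12a peak was lower in both ages (-1.37 and, in older hosts, -0.53). The Thy1 peak was lower in young and higher in older hosts (1.31), the Ifitm2 promoter also reversed (-0.89 and 0.43), and the promoters of Il21 (0.59 and -0.53) and Jun (0.16 and -0.13) reversed the other way. Each of these 5 peaks was called within older hosts and for the difference between ages. The progenitor-open peaks had a median of -0.21 in older hosts against 0.03 in young ones. Host age and any difference between cohorts cannot be told apart here.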

How the data were processed

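ATAC-seq libraries of sorted CD8+ T cells were used as deposited, in 1 table of 53868 peaks by 48 libraries. The authors made this signal by counting whole reads per peak and normalizing them by a library size factor before depositing the table. This follows from the deposited values: in every library 100% of them were whole multiples of 1 step (tolerance 0.001), which gave back the reads. The submitters' processing notes name the mm10 build, Bowtie2 2.2.9, Picard 2.8.0, MACS2 2.1.1, SAMtools 1.3.1 and DESeq2 1.28.1, without roles. How peaks were merged is not given in the sources used here. The median-ratio scaling assumes that most peaks do not differ, so a change shared by all peaks would not be seen.

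Here log2(value + 1) of the 16 libraries was fitted with limma 3.58.1 (R 4.3.3; 1 mean per guide and state, trended eBayes), with Benjamini-Hochberg adjustment over all peaks and calls at an adjusted p under 0.05; no peak was filtered out. On this scale the change of weak peaks is understated. The code was tested on simulated data. Alternatives used edgeR 4.0.16 and DESeq2 1.42.0 on the recovered reads (the edgeR quasi-likelihood test called 4032 peaks in the mean of 3 states), another pseudocount, filter, scaling and weights, all 48 libraries, thinned reads and each library left out. The 16 libraries were 6589023 to 22994236 reads deep. The replicate numbers did not pair the samples.

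Each peak was assigned to the nearest protein-coding RefSeq gene (GRCm38.p6) within 100 kb, which matched 51108 peaks; promoter windows were known for 17491 of 21896 such genes. Named peaks were, for the mean, the 10 largest changes each way among called peaks with a mean count of at least 20 and no overlap between guides in any state, and the 5 largest each way with a mean of at least 200. Per state they were the 3 largest, and per difference between states or ages the 2 largest, each way. For each listed gene they were the strongest peak and all called peaks, and the called promoter peaks without overlap were added. The members and lists were chosen with earlier results of these data known. Single values of some listed genes are not reported here. Genes with no peak listed included Spry3, Batf2, Zfp683, Hdac3, Cd3g, Foxp3 and Col1a2, besides those the text names.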

Additional observations from a re-analysis of the deposited data

Results flagged for a closer look

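The following results stood out because the difference between the guides itself differed between 2 states or 2 host ages by a limma contrast. Between Tterm and Tprog 24 peaks differed, between Ttran and Tprog 66, between Tterm and Ttran 64, and between young and older hosts 2002.

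The largest such contrasts between Tterm and Tprog were 4.10 in Paox, a polyamine oxidase gene, 2.93 at an intergenic peak (chr12:25335202-25335513), -3.65 in Terb1 and -3.51 in Zdhhc14. The Terb1 peak read 16.8 and 18.6 with the Zfp219 guide and 3.09 and 1.20 with the Dusp5 guide in Tprog, and 15.3, 28.2 and 21.2 against 42.7, 41.1 and 45.7 in Tterm. The direction turned between the states without overlap in either.

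Between Ttran and Tprog they included 1.99 at an intergenic peak (chrX:50634389-50635717), -5.08 in Gzme, a granzyme gene, and -4.23 in Tulp4. The Gzme peak read 15.9 and 15.9 against 0 and 2.41 in Tprog and 0, 25.7 and 42.5 against 43.6, 31.7 and 39.2 in Ttran. One Zfp219 Ttran library was at 0, so this value rests on few reads.

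Between Tterm and Ttran they were 2.75 near Insig1, 2.56 in Thy1, -1.13 in Jarid2 and -1.09 at an intergenic peak (chr3:62159051-62159489). Of these the Thy1 and Jarid2 peaks and the intergenic one had mean counts above 200.

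Between young and older hosts they were 2.33 near Ntng1, 2.22 at an intergenic peak (chr14:53634849-53635734), -2.97 in Kif1a, a kinesin gene, and -2.55 near Zdhhc20. Within young hosts the Kif1a peak was lower with the Zfp219 guide (-1.03) and within older hosts higher (1.93).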

How the results depend on the processing

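For the mean of 3 states the count of 3493 stayed within 1.5 times under a pseudocount of 8, without the weakest 25% of peaks, with quantile or median-ratio scaling, with edgeR, DESeq2, all 48 libraries, library weights and thinned reads, from 2547 to 4716. It was 2186 without the Ttran libraries and 971 with a single value per group (these 2 settings and thinned reads were added after seeing the data), and 2432 to 3847 with 1 library left out. Of 361 named peaks 112 kept the call in each setting, and the Thy1 peak (chr9:44046603-44047436) turned from -0.45 to 0.083 without the Ttran libraries.

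By state, edgeR called 241 peaks in Tterm. All 48 libraries in 1 fit gave 1022 in Tprog and 217 in Tterm, and DESeq2 gave 992 and 460. Fits of only the groups compared gave 186, 822 and 1543 in Tprog, Ttran and Tterm, library weights 290, 1199 and 1505, and thinned reads 1776 in Ttran. With 1 library left out the ranges were 228 to 618, 1377 to 2900 and 28 to 44. The Tterm split of 37 higher and 51 lower became 40 and 37 with quantile scaling, 768 and 737 with library weights, and 14 and 14 or 19 and 19 without Dusp5 Tterm replicate 1 or 2. The Tprog split of 205 and 345 became 386 and 232 or 141 and 101 without Dusp5 Tprog replicate 1 or 2. With quantile scaling the split between Tterm and Ttran went from 40 and 24 to 22 and 24.

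For the differences between states (Tterm against Tprog, Ttran against Tprog and Tterm against Ttran, in this order), only the groups compared gave 55 for Tterm against Tprog and 3 for Ttran against Tprog, library weights 38, 30 and 127, and DESeq2 72, 311 and 283. All 48 libraries gave 310 for Ttran against Tprog and 157 for Tterm against Ttran. For Ttran against Tprog, edgeR gave 104 and leaving out the weakest 25% of peaks 128. With 1 library left out they were 12 to 62, 41 to 174 and 30 to 92. The Ttran against Tprog split of 30 and 36 became 32 and 31 with quantile scaling, 68 and 60 without the weakest 25% of peaks, and 96 and 39 or 30 and 16 without Zfp219 Tprog replicate 1 or 2. The Tterm against Tprog split of 3 and 21 became 20 and 15 without Zfp219 Tprog replicate 1. Young against older hosts gave 1442 to 2351.

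The control axis held 6678 peaks, 4216 without the weakest 25% and 6039 to 6278 with a library left out. The score differences were -0.0724 (Ttran) and 0.162 (Tterm) with a pseudocount of 8. They were -0.0125 (Tprog) and -0.0710 (Ttran) without the weakest 25%, and 0.0706, -0.0654 and 0.193 with quantile scaling. With a library left out they ran from 0.00408 to 0.0412 in Tprog, -0.123 to -0.0990 in Ttran and 0.206 to 0.216 in Tterm. The cause of these shifts was not tested.

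With the replicate number as a block, 3406 peaks were called for the mean and 548, 2828 and 89 by state. Same-numbered samples of the 2 guides within a state did not deviate together (r from -0.009 to 0.005 over 8 pairs, against -0.007 to 0.011 over 14 differently numbered pairs). With 2 Tprog libraries per guide, all Tprog pairs have the same r in size (0.0012). Whether same-numbered samples of different states deviate together was not tested. With 2 or 3 pools per group, single-state calls are the least certain.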

Other observations

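The T cell receptor delta locus (chr14:53946073-54159198) held 23 peaks, of which 7 were higher and none lower with the Zfp219 guide in young hosts. Of all peaks 2.47% were higher in young hosts and 5.54% in older hosts. The median log2 fold change of the 23 was 0.21, and in older hosts it was 0.37 with 7 peaks higher and none lower. The peak at chr14:54059929-54062365 read 292 and 319 against 226 and 216 in Tprog, 364, 245 and 275 against 233, 149 and 119 in Ttran, and 291, 309 and 344 against 155, 166 and 191 in Tterm. The Zfp219 libraries were higher without overlap in each state. This region was chosen after its values were seen.

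In 50 genes at least 5 assigned peaks were called, again chosen after the values were seen. All called peaks were lower in 42 of them, higher in 2 (Auh and Snx29) and mixed in 6. Among them, Rbpj, the Notch pathway transcription factor gene, had 10 of 33 peaks called, Zmiz1 8 of 37, and Csf2, which encodes the cytokine GM-CSF, 7 of 12. All of these were lower, against 4.01% of all peaks. The median log2 fold change over all peaks of the gene was -0.19, -0.17 and -0.38 in young hosts. In older hosts it was -0.16, 0.002 and -0.21, so Zmiz1 showed no shift there.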
